A study of Mus musculus with 13 samples.

Results

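Twist1, Twist2, Prrx1, Prrx2, Tbx15, Tbx18, Tbx3, Tbx5, En1 and Tcf4 encode transcription factors of the dermal and limb mesenchyme, and their transcript levels were followed in cultured skin fibroblasts of mice with and without a point mutation in fibrillin-1. These 10 genes were taken by name from a list of dermal lineage factors, and all 10 were present among the 25655 genes of each expression table. The samples were 13 primary cultures of fibroblasts from neonatal mouse dermis, untreated. Each culture was either wild type (WT) or homozygous for the G234D allele of Fbn1 (Fbn1 G234D/G234D, written G234D here), the gene of the microfibril protein fibrillin-1, and the series asked whether the mutation changes matrix gene expression in the fibroblasts themselves. Set 1 held 4 WT cultures (W1 to W4) and 4 G234D cultures (M1 to M4). Set 2, described as additional, held 2 WT cultures (W5 and W6) and 3 G234D cultures (M5 to M7). The allele was present throughout the animal, so no promoter or cell type limited it, and the labels give neither litter nor sex. The culture titles carry numbers. In set 1 these fall into an earlier, lower range (W1, W2, M1 and M2) and a later, higher range (W3, W4, M3 and M4), with both genotypes in each. What the numbers record is not stated, and the number of W1 lies far below the other 3 of its range.

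Twist1 and Twist2 (also called Dermo1) are basic helix-loop-helix proteins that bind DNA as dimers with E proteins and hold mesenchymal cells short of bone, muscle or fat differentiation. Tcf4 as named here is the E protein E2-2, a dimerisation partner of Twist proteins, and not the Wnt effector encoded by Tcf7l2. Prrx1 and Prrx2 are paired-related homeobox factors of limb, face and dermal mesenchyme. Tbx15, Tbx18, Tbx3 and Tbx5 are T-box factors, of which Tbx15 patterns the dermis and coat, Tbx18 marks the dermal papilla, Tbx3 acts mainly as a repressor and Tbx5 directs forelimb outgrowth. En1 is a homeobox factor of ventral limb ectoderm and of the dermomyotome, and its past expression marks the scar-forming fibroblast lineage of back skin.

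Levels are given in TPM, the length-scaled share of all transcripts of a culture. They carry no read totals, so the depth behind each value is unknown. Between 11741 and 12042 genes reached 1 TPM in a culture. The cultures held the markers of their labelled cell type. All 14 fibroblast markers passed 1 TPM in at least 6 cultures, and their summed level ran from 31006 to 42960 TPM. Keratinocyte markers summed to between 7.80 and 20.2 TPM and endothelial markers to between 17.4 and 28.1 TPM, with 3 markers of each list reaching 1 TPM in 6 cultures. Pericyte and smooth muscle markers summed to between 7180 and 11112 TPM, with 9 reaching 1 TPM in 6 cultures. M1 and M2 stood apart from the other set 1 cultures. Their Schwann cell and melanocyte markers summed to 142 and 143 TPM, against 26.0 to 51.5 TPM in the other 6. Their skeletal muscle markers summed to 420 and 336 TPM, against 68.3 to 171 TPM, and their macrophage markers to 169 and 225 TPM, against 36.1 to 99.9 TPM. In set 2 these lists summed, in the same order, to 27.0 to 35.4, 88.5 to 140 and 110 to 174 TPM. Sox10, which defines the neural crest glial lineage, stood at 22.4 and 22.6 TPM in M1 and M2 and at 3.30 to 6.53 TPM in the other set 1 cultures, and Myog, a muscle regulator, at 33.9 and 23.5 TPM against 0.367 to 6.79 TPM. Every value of M1 and M2 given below stands beside these sums, and their part in the results was not tested except by leaving out these cultures.

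**Figure D1:**
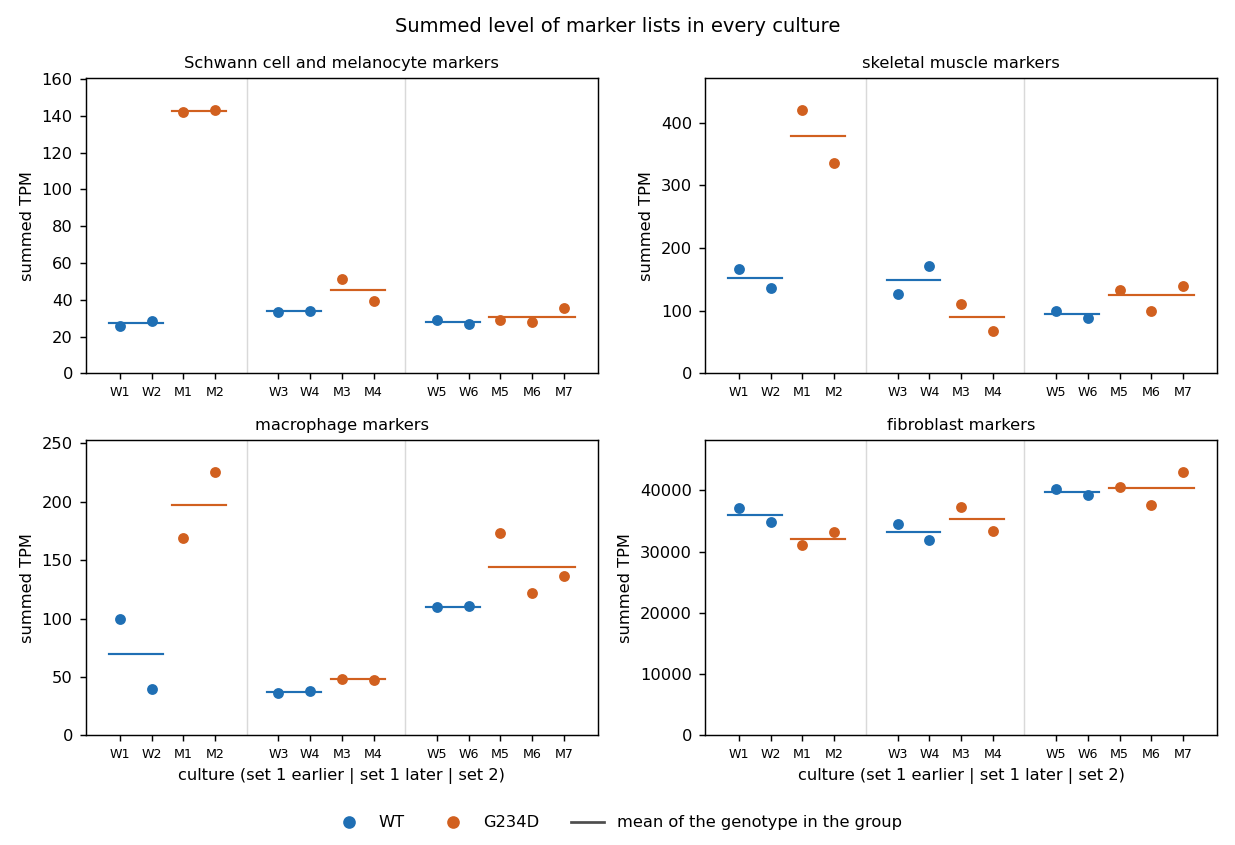
Summed TPM (vertical axis) of 4 marker lists in each of 13 cultures (horizontal axis), blue for WT and orange for G234D, with a line at the mean of each genotype within a group of cultures. M1 and M2 hold the highest Schwann cell and melanocyte sums (142 and 143 TPM) and the highest skeletal muscle sums (420 and 336 TPM).

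The stretches upstream of Twist1 and Twist2 are shown because these paralogs moved apart between cultures in the results below. Each is the 250 bases before the annotated start, 5′ to 3′ on the plus strand, from RefSeq on build GRCm38.p6 (mm10). Capitals mark the letters CCAAT and TATAAA, looked for on both strands. The Twist1 stretch is chr12:33957421-33957670 and the Twist2 stretch is chr1:91801211-91801460.
Twist1: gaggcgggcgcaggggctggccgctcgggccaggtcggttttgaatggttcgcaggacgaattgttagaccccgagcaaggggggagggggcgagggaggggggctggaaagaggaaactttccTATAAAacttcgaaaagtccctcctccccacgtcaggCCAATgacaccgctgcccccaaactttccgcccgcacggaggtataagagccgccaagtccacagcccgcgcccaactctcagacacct
Twist2: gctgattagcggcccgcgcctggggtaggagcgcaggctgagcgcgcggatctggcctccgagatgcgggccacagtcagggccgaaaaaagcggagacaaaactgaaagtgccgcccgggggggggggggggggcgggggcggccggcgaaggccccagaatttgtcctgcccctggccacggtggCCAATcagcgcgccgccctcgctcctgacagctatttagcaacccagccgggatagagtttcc
Both stretches are rich in G and C (62.4% for Twist1 and 68.8% for Twist2, against a median of 52.4% over 32851 RefSeq entries) and hold 18 and 23 CG dinucleotides (median 6). Each has 1 CCAAT, starting 89 bases before the start of Twist1 and 63 bases before that of Twist2, a string found in 33.8% of all entries. Only the Twist1 stretch has TATAAA, 126 bases before the start, a string found in 12.4% of all entries. Neither stretch holds CANNTG, the E-box letters that Twist dimers can bind, which 66.2% of all entries hold. These matches describe the letters and no binding was measured.

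The 10 genes covered a wide range of levels, and the 5 most abundant changed places between cultures. Over all 13 cultures the median levels were 176 TPM for Twist1, 133 TPM for Prrx1, 123 TPM for Tbx15, 90.3 TPM for Twist2, 76.7 TPM for Prrx2, 35.1 TPM for En1, 31.0 TPM for Tcf4, 11.02 TPM for Tbx18, 10.7 TPM for Tbx3 and 5.46 TPM for Tbx5. Tbx5 was the lowest of the 10 in every culture, and Twist1 was first or second in every culture. Most neighbours in this order were not separated by the spread between cultures. Only Tcf4 over Tbx18 and Tbx3 over Tbx5 had ranges that did not overlap. Prrx1 ran from the first to the fourth place among the 10 and Prrx2 from the second to the fifth. Prrx2 lay below Twist2 in 7 of 13 cultures and above En1 in all 13.

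**Figure D2:**
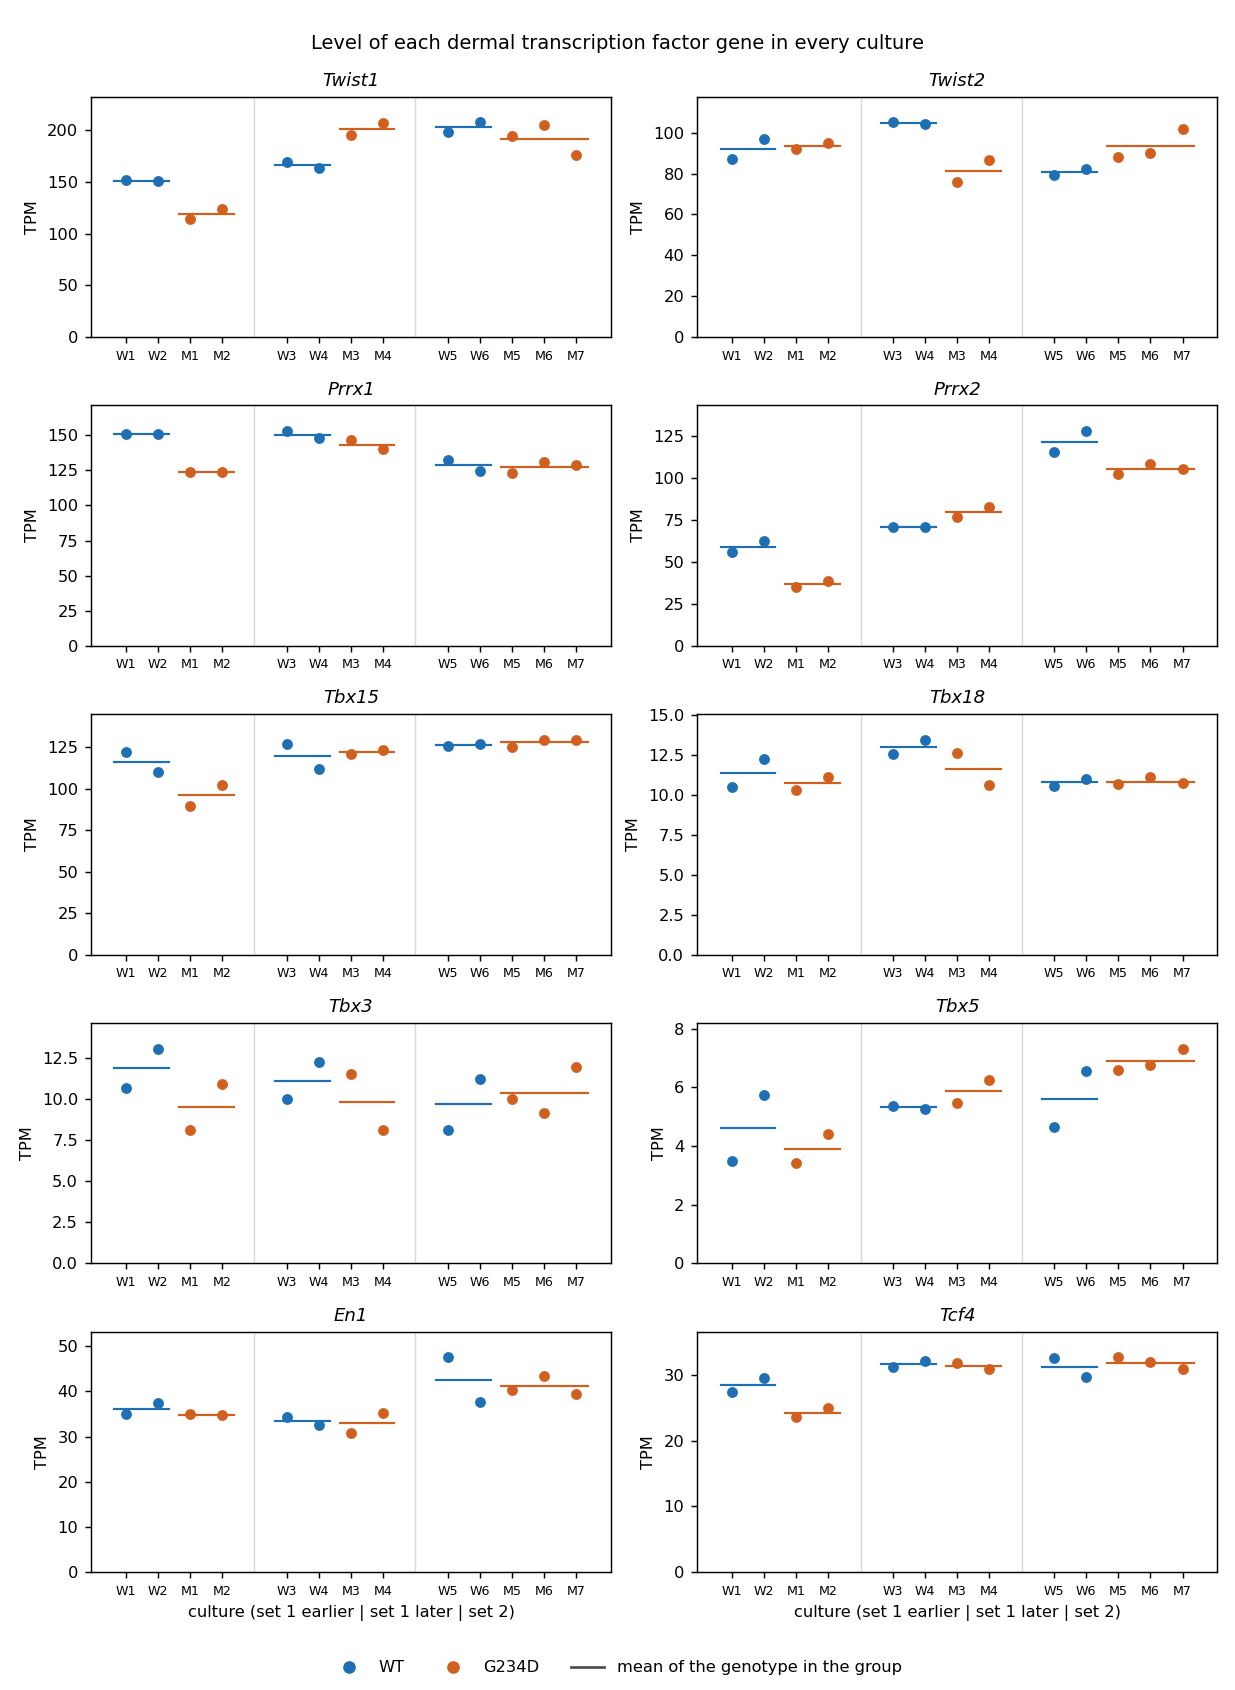
TPM (vertical axes, from 0) of each of the 10 genes in 13 cultures (horizontal axes), blue for WT and orange for G234D, with lines at the mean of each genotype within earlier-numbered set 1, later-numbered set 1 and set 2. Twist1, Prrx1, Prrx2, Tbx15 and Tcf4 are lowest among set 1 in M1 and M2.

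Taken over all cultures, none of the 10 genes passed the test between the genotypes. The moderated linear model of limma on log2(TPM + 1), with the 3 groups of title numbers as a covariate, called 0 of 11942 genes at an adjusted p under 0.05 (0% of genes, lowest adjusted p = 0.184), and 0 of the 10. At unadjusted p under 0.05 it found 1076 genes, which is 9.01% of those tested, among them Prrx1 and Prrx2. The difference, G234D minus WT, was −0.12 for Prrx1 (SE 0.041, unadjusted 95% interval −0.20 to −0.026, adjusted p = 0.453) and −0.23 for Prrx2 (SE 0.10, unadjusted 95% interval −0.45 to −0.0054, adjusted p = 0.538). The estimates of 9 of the 10 were below 0, with a median of −0.065 beside 0.011 for all genes, of which 56.6% had an estimate above 0. Without M1 and M2, the difference of Prrx1 was −0.039 and that of Prrx2 −0.034, and those of Twist1, Tbx15 and Tcf4 were above 0 (0.079, 0.025 and 0.010). With M1 and M2 left out, the earlier group holds only WT and adds nothing to the genotype difference. RNA of whole cultures cannot tell fewer cells of a type from less RNA per cell.

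None of the 10 was called within either set. In set 1, limma called 1 of 11905 genes (0.0084%) and 0 of the 10, whose estimates were all below 0. Of all genes, 49.8% had an estimate above 0 in set 1 and 62.4% in set 2. Within set 1, 9 of the 10 estimates were below 0 in the earlier cultures and 6 in the later ones. In set 2 it called 1 of 12060 genes (0.00829%) and 0 of the 10, with 6 estimates above and 4 below 0. The difference between the sets in their genotype effect was called for 1 gene (0.00837%) and for 0 of the 10. Its smallest p among the 10 was that of Twist2, at 0.37 (SE 0.13, adjusted p = 0.538), whose estimate was below 0 in set 1 and above 0 in set 2.

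Over all genes, more were called between the groups of title numbers in set 1 than between the genotypes. Among the 10, Twist2, Prrx1 and Tbx3 had the larger estimate for genotype in set 1 (−0.17, −0.18 and −0.24). Their estimates for later minus earlier were −0.0095, 0.10 and −0.027. With genotype as a covariate, limma called 850 of 11905 genes between later and earlier cultures (7.14%), and 2 of the 10, Prrx2 and Tcf4, both higher in the later cultures (2.79% of all genes were called higher and 4.35% lower). The genotype difference itself changed between the groups for Twist1 and Prrx2. This interaction was called for 334 genes (2.81%, with 0.932% called as positive and 1.87% as negative) and for 2 of the 10. Calls for Twist1 and Prrx2 held in all 8 fits that left out a culture. In these fits the adjusted p of Twist1 ran from 0.00355 to 0.0432 and that of Prrx2 from 0.00355 to 0.0423. Each of these fits kept M1 or M2. Without both, no earlier G234D culture is left and the interaction cannot be fitted, so its dependence on both together was not tested. The main-effect calls did not hold so widely. Prrx2 lost its call between later and earlier cultures in 6 of 8 such fits, without W1, W3, M1, M2, M3 or M4 in turn (adjusted p = 0.0830, 0.0600, 0.127, 0.162, 0.106 and 0.115), and Tcf4 also in 6, without W1, W4, M1, M2, M3 or M4 (adjusted p = 0.0785, 0.0523, 0.102, 0.128, 0.0773 and 0.0873).

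The parts of this interaction were compared in the same fit, a step chosen after the data were seen. Between G234D and WT, 467 genes were called in the earlier cultures (3.92%, with 1.5% lower), and 3 of the 10 were lower in G234D, namely Twist1, Prrx1 and Prrx2. In the later cultures 32 genes were called (0.269%) and 0 of the 10. Between later and earlier cultures, 14 genes were called among WT (0.118%) and 0 of the 10, while 2695 genes were called among G234D cultures (22.6%, with 9.16% higher), and 5 of the 10, Twist1, Prrx1, Prrx2, Tbx15 and Tcf4, all higher. That last count had a high background. Leaving out M1 brought it from 5 to 2 of the 10 and from 2695 to 1142 genes.

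**Figure D3:**
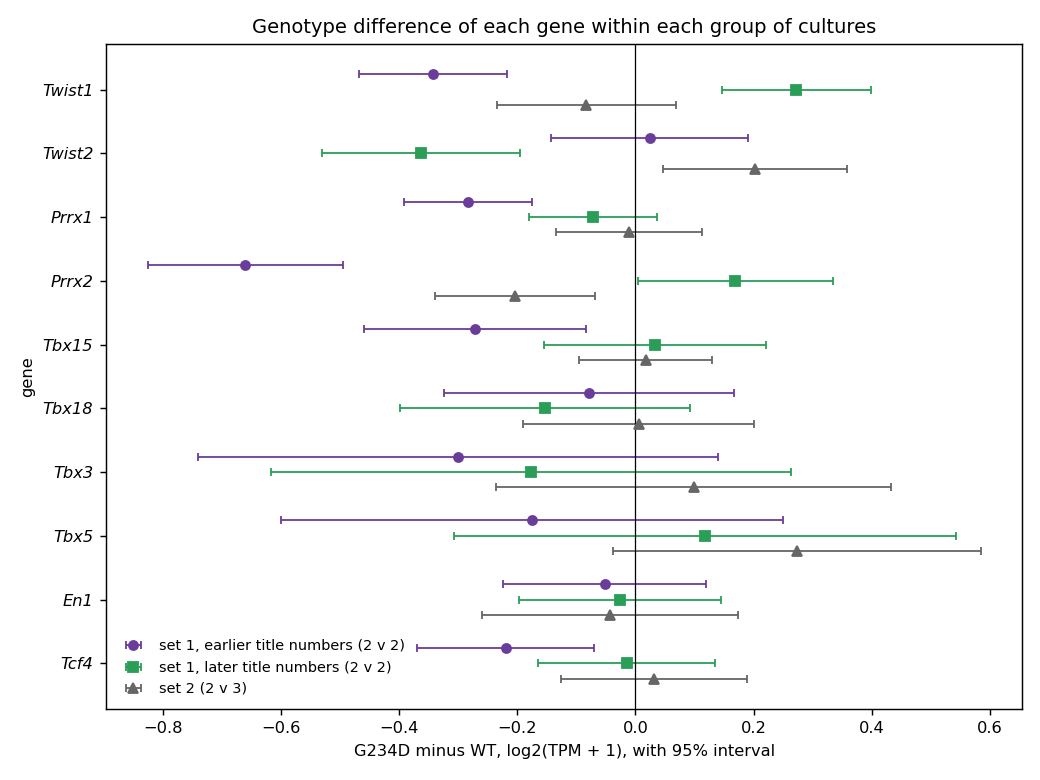
Difference G234D minus WT on the log2(TPM + 1) scale (horizontal axis) for each of the 10 genes (vertical axis) in earlier-numbered set 1 (circles), later-numbered set 1 (squares) and set 2 (triangles). Bars are 95% intervals from limma, not adjusted for the number of genes, and the points of Twist1 and Prrx2 lie below 0 in the earlier cultures and above 0 in the later ones.

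Twist1 (ENSMUSG00000035799) lies on the plus strand of chromosome 12, from 33957671 to 33959829. Among the earlier cultures it stood at 152 TPM in W1, 151 TPM in W2, 115 TPM in M1 and 124 TPM in M2. Among the later cultures it stood at 170 TPM in W3, 163 TPM in W4, 195 TPM in M3 and 207 TPM in M4. The genotypes did not overlap in either group, and the order was opposite. Of all genes, 57.7% did not overlap between the genotypes in the earlier cultures, 39.7% in the later ones and 23.6% in set 2. The difference was −0.34 in the earlier cultures (SE 0.056, adjusted p = 0.0116, a 0.788-fold level) and 0.27 in the later ones (SE 0.056, adjusted p = 0.108), and the interaction was 0.62 (SE 0.079, 95% interval 0.44 to 0.79, adjusted p = 0.00767). The earlier difference lost its call without W1, W2 or M1 in turn (adjusted p = 0.0842, 0.0934 and 0.125). Among G234D cultures alone, Twist1 rose by 0.75 from earlier to later (adjusted p = 7.88e-05). Over all of set 1 the mean of the WT cultures was 159 ± 9.11 TPM and that of the G234D cultures 160 ± 47.8 TPM (SD, n = 4 each), with the opposite orders cancelling. Set 2 held 198 and 208 TPM in W5 and W6 and 195, 205 and 176 TPM in M5, M6 and M7, so the genotypes overlapped there.

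Twist2 (ENSMUSG00000007805), on the plus strand of chromosome 1 from 91801461 to 91848028, did not follow Twist1. It stood at 87.0 and 97.1 TPM in W1 and W2 and at 91.9 and 95.02 TPM in M1 and M2, with the genotypes overlapping. In the later cultures W3 and W4 held 105 and 104 TPM, and M3 and M4 held 75.8 and 86.7 TPM. The later difference was −0.36 (SE 0.075), at an unadjusted p of 0.000752 and an adjusted p of 0.108, and the interaction of −0.39 was not called (SE 0.11, adjusted p = 0.0835). In set 2 the order was reversed, with 79.3 and 82.3 TPM in W5 and W6 below 88.0, 90.3 and 102 TPM in M5, M6 and M7, a difference of 0.20 (SE 0.070, adjusted p = 0.741). The genotypes did not overlap in the later cultures (39.7% of all genes) or in set 2 (23.6% of all genes), with opposite signs, and neither difference passed the test.

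The ratio of Twist2 to Twist1 brought these patterns together. In the 4 WT cultures of set 1 it ran from 0.572 to 0.645. M1 and M2 lay above that range, at 0.802 and 0.768, and M3 and M4 below it, at 0.388 and 0.418. In set 2 the ratio was 0.3998 and 0.396 in W5 and W6 and 0.452, 0.439 and 0.579 in M5, M6 and M7. Ratios across sets were not compared by a test.

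Prrx2 (ENSMUSG00000039476), on the plus strand of chromosome 2 from 30834972 to 30881251, had the widest range of the 10 as a ratio, its highest level being 3.64 times its lowest. It stood at 55.5 TPM in W1, 62.1 TPM in W2, 35.04 TPM in M1 and 38.7 TPM in M2. The later cultures held 70.8 TPM in W3, 70.6 TPM in W4, 76.7 TPM in M3 and 82.5 TPM in M4. All 4 later cultures lay above all 4 earlier ones, where 15.4% of all genes did not overlap, a difference of 0.68 (SE 0.16, adjusted p = 0.0496). G234D was lower than WT in the earlier cultures by a difference of −0.66 (SE 0.074, adjusted p = 0.00207, a 0.633-fold level), a call that held in all 8 fits without 1 culture. In the later cultures the difference was 0.17 (SE 0.074, adjusted p = 0.393), and the interaction was 0.83 (SE 0.10, 95% interval 0.60 to 1.06, adjusted p = 0.00759). Among G234D cultures Prrx2 rose by 1.09 from earlier to later, a 2.13-fold level (adjusted p = 5.45e-05), and among WT the difference was 0.26 (adjusted p = 0.243). Set 2 held higher values throughout, with 115 and 128 TPM in W5 and W6 and 102, 108 and 105 TPM in M5, M6 and M7. The genotypes did not overlap in set 2 (23.6% of all genes), where the difference was −0.20 (SE 0.061, unadjusted p = 0.00753, adjusted p = 0.675).

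Prrx1 (ENSMUSG00000026586), on the minus strand of chromosome 1 from 163245119 to 163313710, was steadier than its paralog. W1 and W2 both held 151 TPM and M1 and M2 both held 124 TPM, a difference of −0.28 (SE 0.048, adjusted p = 0.0136). That call was lost without W1, W2, M1 or M2 in turn, with adjusted p up to 0.120. The later cultures held 153 and 148 TPM in W3 and W4 and 146 and 140 TPM in M3 and M4. In set 1 all WT cultures thus lay above all G234D cultures (4.16% of all genes did not overlap), at 151 ± 2.00 TPM against 134 ± 11.4 TPM (SD, n = 4 each), and the difference of −0.18 was not called (SE 0.049, unadjusted p = 0.00536, adjusted p = 0.309). In set 2 the genotypes overlapped between 124 and 133 TPM. The interaction of Prrx1 was 0.21 (adjusted p = 0.126). Among G234D cultures Prrx1 rose by 0.21 from earlier to later (adjusted p = 0.0138), a call lost without M1 or M2.

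The ratio of Prrx2 to Prrx1 was lowest in M1 and M2, at 0.282 and 0.312, and ran from 0.367 to 0.477 in the WT cultures of set 1. It reached 0.524 and 0.589 in M3 and M4. In set 2 it ran from 0.815 in M7 to 1.02 in W6, so Prrx2 came close to the level of Prrx1 there. Set and any difference in how its tables were made cannot be told apart.

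**Figure D4:**
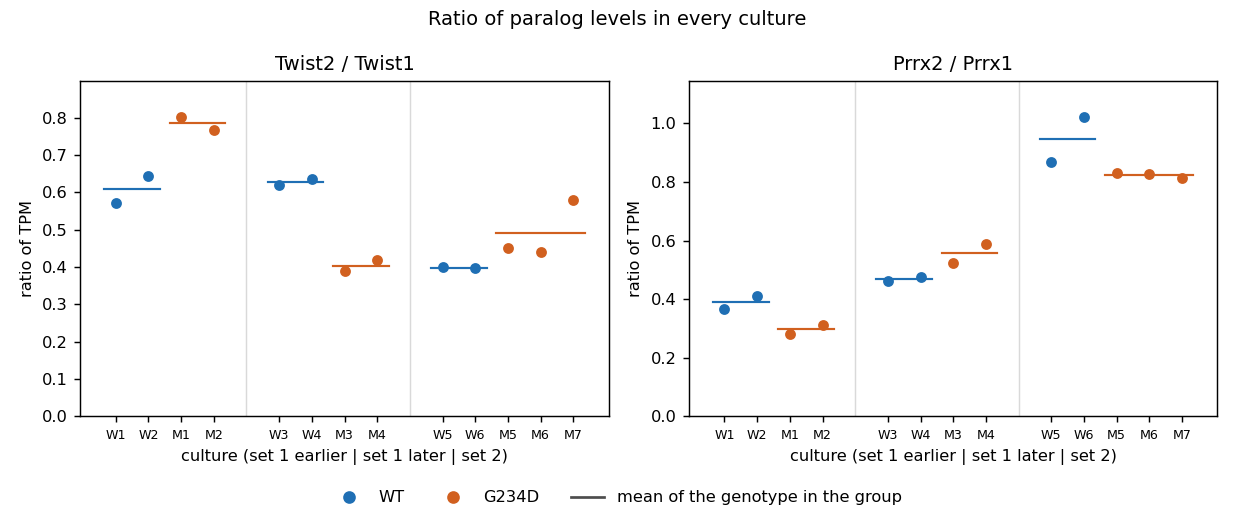
Ratio of TPM (vertical axes, from 0) of Twist2 to Twist1 and of Prrx2 to Prrx1 in 13 cultures (horizontal axes), blue for WT and orange for G234D, with lines at the mean of each genotype within a group. M1 and M2 have the highest Twist2 to Twist1 ratios (0.802 and 0.768) and the lowest Prrx2 to Prrx1 ratios (0.282 and 0.312).

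Tbx15 (ENSMUSG00000027868), on the plus strand of chromosome 3 from 99240381 to 99354259, was the one T-box gene among the abundant members. It stood at 122 and 110 TPM in W1 and W2, at 89.8 and 102 TPM in M1 and M2, at 127 and 112 TPM in W3 and W4 and at 121 and 123 TPM in M3 and M4. The earlier genotypes did not overlap (57.7% of all genes), with a difference of −0.27 that was not called (SE 0.083, adjusted p = 0.104). Among G234D cultures Tbx15 rose by 0.34 from earlier to later (adjusted p = 0.0171), a call lost without M1 or M4 (adjusted p = 0.130 and 0.0699). Set 2 was tight, from 125 to 129 TPM over all 5 cultures.

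The other T-box genes were low and none was called in any comparison. Tbx18 stood between 10.3 TPM in M1 and 13.45 TPM in W4 in set 1 and between 10.6 and 11.1 TPM in set 2, with the genotypes overlapping in all groups of cultures. Tbx3 ran from 8.10 TPM in M1 to 13.1 TPM in W2, and its genotypes overlapped in all groups too. Its difference over all cultures was −0.11 with an interval of −0.36 to 0.13. Tbx5 ran from 3.41 TPM in M1 to 7.32 TPM in M7. Its values in M5, M6 and M7 (6.59, 6.77 and 7.32 TPM) lay above those of W5 and W6 (4.63 and 6.56 TPM, 23.6% of all genes not overlapping), a difference of 0.27 that was not called (SE 0.14, adjusted p = 0.778).

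En1 (ENSMUSG00000058665), on the plus strand of chromosome 1 from 120602418 to 120607992, varied little with genotype or title number. Set 1 held 30.7 TPM (M3) to 37.4 TPM (W2), and set 2 held 37.7 TPM (W6) to 47.5 TPM (W5). In set 1 the WT mean was 34.8 ± 2.02 TPM and the G234D mean 33.9 ± 2.13 TPM (SD, n = 4 each). Its difference over all cultures was −0.040 with an interval of −0.15 to 0.071.

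Tcf4 (ENSMUSG00000053477) was lowest in M1 and M2, at 23.6 and 25.0 TPM. W1 and W2 held 27.5 and 29.5 TPM, and W3, W4, M3 and M4 held 31.3, 32.2, 31.8 and 31.0 TPM. All later cultures lay above all earlier ones (15.4% of all genes did not overlap), a difference of 0.25 (SE 0.057, adjusted p = 0.0351). The interaction was not called (0.20, adjusted p = 0.265). Among G234D cultures Tcf4 rose by 0.36 from earlier to later (adjusted p = 0.00531), a call lost without M1 (adjusted p = 0.0519), and among WT the difference was 0.15 (adjusted p = 0.439). In set 2 the level was between 29.8 and 32.8 TPM in both genotypes.

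Factors that act with these genes were counted in 5 lists, chosen with earlier results of these data known. Between later and earlier cultures of set 1, where 7.14% of all genes were called, the list of Twist partners and inhibitors had 1 of 8 tested members higher (Id4, an inhibitor of helix-loop-helix dimers, at 0.88, adjusted p = 0.0274) and 1 lower (Hand2, a basic helix-loop-helix partner of E proteins, at −0.70, adjusted p = 0.0272). Of 23 tested homeobox genes, 2 were higher, among them Six5 (0.40), and 1 lower, Six4 (−0.57). Of 11 Wnt and beta-catenin effectors, 1 was higher, Lef1 (0.63, adjusted p = 0.0337), the nuclear partner of beta-catenin. Of 4 other T-box genes, 0 were called. The zinc-finger, forkhead and other mesenchymal factors had 7 of 34 higher and 3 lower, led by Ebf1 (0.36, adjusted p = 0.0114), Osr1 (0.98, adjusted p = 0.0151) and Foxc2 (−0.30, adjusted p = 0.0220). Of the 8 fits without 1 culture, Ebf1 and Osr1 each lost the call in 1 and Foxc2 in 2, whereas Id4 lost it in 5, Hand2, Six4 and Six5 in 6 and Lef1 in 7. The medians of these lists were 0.099, 0.037, −0.0056, 0.27 and −0.019 in the order given, beside 0.17 for the 10 genes and −0.022 for all genes. Pericyte and smooth muscle markers were lower in the later cultures for 6 of 9 tested, and of 14 fibroblast markers 3 were higher (Pdgfra, Dcn and Dpt), with 9 estimates above and 5 below 0.

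Between later and earlier G234D cultures, 22.6% of all genes were called, in either direction. So were 5 of 8 Twist partners, 1 of 4 other T-box genes and 8 of 23 homeobox genes. The counts were 4 of 11 for Wnt effectors, 14 of 34 for the other mesenchymal factors and 8 of 14 for fibroblast markers. In the interaction, where 2.81% of all genes were called, 0 of 8 Twist partners, 0 of 4 other T-box genes and 0 of 23 homeobox genes were called. Of 11 Wnt effectors, Nkd1 (1.14, adjusted p = 0.0427) and Nkd2 (−1.09, adjusted p = 0.00203) were called, both feedback inhibitors of Wnt signalling. Nkd1 stood at 4.39 and 5.03 TPM in M1 and M2 and at 7.95 to 13.4 TPM in the other set 1 cultures. Nkd2 went the other way, at 34.9 and 32.4 TPM in M1 and M2 and at 16.5 to 23.3 TPM in the others. Of 34 other factors, Sox9 (0.72, adjusted p = 0.0346) and Nfatc4 (0.38, adjusted p = 0.0440) were called as positive, and Pax3 (−1.01, adjusted p = 0.0213), a factor of neural crest and muscle precursors, as negative. Pax3 was at 10.96 and 10.95 TPM in M1 and M2 and at 2.92 to 5.87 TPM in the others. Of 8 tested Schwann cell and melanocyte markers, 6 were called in the interaction, all negative, with Sox10 at −1.98 (adjusted p = 0.00172). Of 14 fibroblast markers, with 10 estimates above and 4 below 0, Pdgfra (1.02) and Col3a1 (0.95) were called as positive, both with an adjusted p of 0.0242. Nkd1, Sox9, Nfatc4 and Pax3 lost their calls in 7, 5, 7 and 5 of the 8 fits without 1 culture.

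Over both sets none of the 5 lists had a member called between the genotypes. The smallest p values were those of Id3 (−0.23) and Id1 (−0.20), Tbx2 (−0.27) and Mga (0.077), Irx5 (−0.16) and Tshz2 (0.22), Nkd2 (0.33) and Lef1 (−0.19), and Pax3 (0.57) and Prdm1 (−0.46), all with an adjusted p of 0.421 or more. Without M1 and M2 these values kept their sign, and Nkd2 came to 0.051 and Prdm1 to −0.16.

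Twist1, Prrx2, Tcf4, Tbx15 and Prrx1 varied together over the 13 cultures once the mean of each set was removed, and the number of strong correlations rested on M1 and M2. Of 45 pairs, 33 had a positive Pearson correlation of log2(TPM + 1) and 9 reached 0.7, all among Twist1, Prrx2, Tcf4, Tbx15 and Prrx1. The pair Twist1 and Prrx2 was highest (Pearson 0.946, Spearman 0.879), followed by Prrx2 and Tcf4 (0.883). Without M1 and M2, over 11 cultures, 22 pairs were positive and 1 reached 0.7, again Twist1 and Prrx2 (0.847). Prrx1 went from 0.743 to −0.50 with Prrx2 and from 0.607 to −0.59 with Twist1. With Tcf4 it went from 0.772 to −0.12 and with Tbx15 from 0.781 to −0.010. Over all 13 cultures the Spearman correlations of Prrx1 with these genes ran from 0.313 to 0.533. Twist1 and Twist2 were negatively related with and without M1 and M2 (−0.37 and −0.58). Over all 13 cultures En1 had no correlation above 0.0946 with any of the others, and without M1 and M2 its correlation with Prrx1 was 0.499. These values are descriptions, and the cultures share their group of title numbers.

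**Figure D5:**
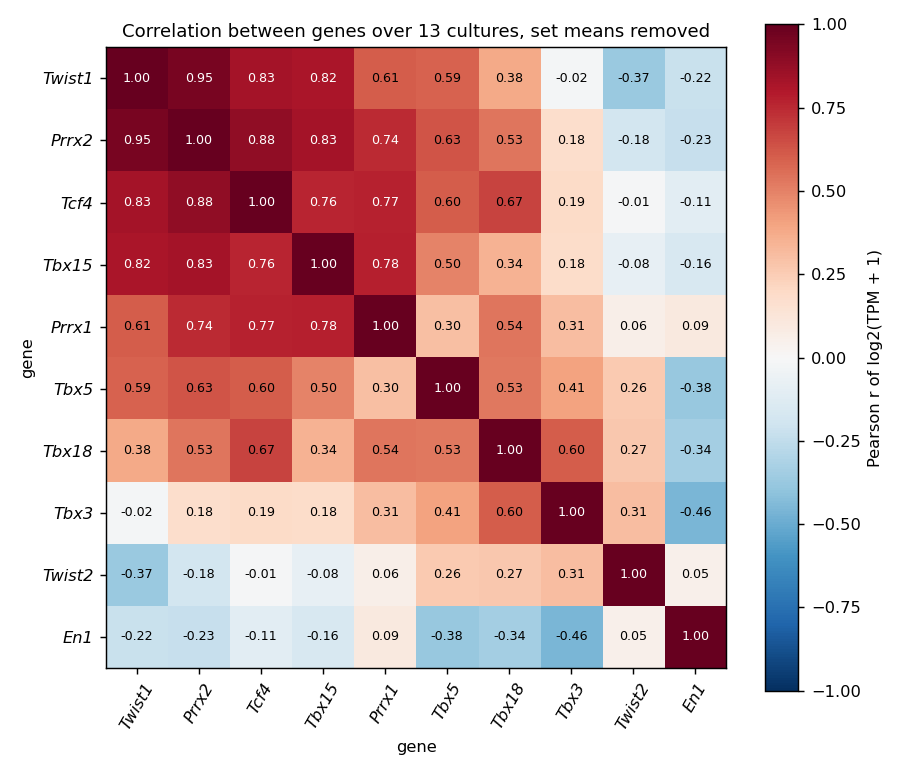
Pearson correlation (colour and number) of log2(TPM + 1) between the 10 genes (both axes) over 13 cultures, with set means removed. A block of 5 genes from Twist1 to Prrx1 holds the 9 pairs at 0.7 or more, and Twist2 and En1 lie outside it.

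The genes whose levels were most like those of each member were sought among the other 11941 genes tested over both sets. For Twist1 they were Nsa2 (0.977), Rpl5 (0.969) and Mylip (0.966), where Nsa2 acts in ribosome assembly and Rpl5 is a ribosomal protein. For Prrx2 they were Mmp11 (0.982), a stromelysin of stromal cells, and Lgr4 (0.979), an R-spondin receptor. The nearest genes of Tbx15 were Col6a2 (0.954) and Col6a1 (0.952), which encode collagen VI chains, and Scaper (0.944). Those of Prrx1 were Tle6 (0.946), Prdm1 (0.937) and Dusp7 (0.936), and those of Tcf4 were Hdac5 (0.960) and Eif4b (0.957). Prrx2 ranked 31 for Twist1, and Twist1 ranked 23 for Prrx2. The other 5 genes had no neighbour above 0.924, the value of Fars2 with Tbx5. For Twist2 the nearest were Usp4 (0.875), Taf1c (0.833) and 2310009B15Rik (0.830), for Tbx18 Spats2l (0.861), Lin52 (0.840) and Bmp4 (0.837), for Tbx3 Zfp369 (0.895), Gm6710 (0.853) and Tbc1d22b (0.848), for Tbx5 after Fars2 Tab1 (0.891) and Glyctk (0.875), and for En1 Lrch4 (0.873), Atg4b (0.852) and Get4 (0.838). The weight of M1 and M2 in these neighbours was not tested.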

How the data were processed

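Total RNA of 13 cultures was made into stranded libraries, per the labels' protocols. The authors deposited TPM per gene and culture, per the file headers. The build is mm10, per the submitters' processing notes, with aligner, counter and annotation not given in the sources used here. TPM hold no read totals, so depth is unknown and precision comes from the spread between cultures. The tables name genes by symbol, and gene identifiers were also read from them. All 10 genes were matched by identifier in GENCODE M21, which gave the positions on mm10. No other annotated gene overlapping them that is listed in the tables had a level above 0 TPM.

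TPM were transformed to log2(TPM + 1), a scale that understates differences of genes at low levels. Genes at 1 TPM or more in at least 6 cultures (both sets), 4 (set 1) or 2 (set 2) were tested in R 4.3.3 by limma 3.58.1, whose prior variance followed mean level and was fitted robustly. Adjustment was by Benjamini-Hochberg over all tested genes, and a call is an adjusted p under 0.05. Differences are G234D minus WT, or later minus earlier title numbers, and the interaction is the genotype difference in later minus that in earlier cultures. The models were tested on simulated data. A 1.5-fold change was recovered for 92% of changed genes over both sets, 94% in set 1 and 92% between later and earlier cultures. In set 2 this was 58% and in the interaction 34%. For a 1.25-fold change the shares were 80%, 62%, 42%, 10% and 0% in that order. Among the calls, 2.99% to 8.2% fell on unchanged genes. Differences within each title-number group, the fits and correlations without M1 and M2 and the shares of genes not overlapping were chosen after seeing the data. The 10 genes and the lists were chosen with earlier results of these data known. All 10 genes were named, and of each list of factors up to 3 called genes with the smallest p, or with none called over both sets the 2 with the smallest p. Lists are given by counts only elsewhere. For each of the 10, the 3 genes with the highest correlation were named. A few genes that these rules name are not reported here.

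WT and G234D cultures of set 1 with the same replicate number deviated together from their group means (correlations 0.314, 0.236, 0.244 and 0.214, all over 0.1), but not in set 2 (−0.155 and 0.0138). M2 correlated more with W1 (0.397) and M4 more with W3 (0.440) than with the WT culture of the same number. The pairing rests on the numbers in the labels and these correlations, which came to −0.011, −0.011, −0.088 and −0.088 once the title-number groups were removed. With 2 cultures of each genotype in such a group, deviations mirror each other. The repeated values are thus equal by construction and cannot tell partners apart.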

Additional observations from a re-analysis of the deposited data

Results flagged for a closer look

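En1 in M3, at 30.7 TPM, lay farther from the other 3 G234D cultures of set 1 (34.8 to 35.1 TPM) than chance would place a lowest sample at the 95% level. It was the 1 such value among 20 groups looked at, and chance alone gives about 1 in 20.

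The genotype difference in set 1 was not the same in earlier- and later-numbered cultures, by limma's interaction term, for 7 of the genes given in the report. The log2 interactions were 0.62 for Twist1, 0.83 for Prrx2, 1.14 for Nkd1, −1.09 for Nkd2, 0.72 for Sox9, 0.38 for Nfatc4 and −1.01 for Pax3. M1 and M2 held the highest sums of Schwann cell and melanocyte markers (142 and 143 TPM) and of skeletal muscle markers (420 and 336 TPM). The part of those sums in the interaction was not tested.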

How the results depend on the processing

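TPM without read totals limits what can be said of the low genes Tbx18, Tbx3 and Tbx5. Over both sets 0 genes and 0 of the 10 were called under every alternative run, and the calls of Twist1 and Prrx2 in the interaction held under every alternative run. No run of the interaction left out both M1 and M2, since it cannot be fitted without an earlier G234D culture. The cause of the changes that follow was not tested. Apart from fits without 1 culture, calls of named genes changed too, counted over genes and runs. Between later and earlier cultures 10 such calls were lost and 2 gained, and in the interaction 4 were lost. Without M1 and M2, and without the 4 earlier-numbered cultures, the genotype differences over both sets of Twist1, Tbx15 and Tcf4 came to 0.079, 0.025 and 0.010. Both runs give the same estimates by construction, since W1 and W2 alone hold no genotype difference. Median-of-ratios scaling gave −0.017 for Tbx15, −0.027 for Tbx18 and −0.0022 for Tcf4 in set 2, and 0.019 for Twist2 between later and earlier cultures. With no filter on low TPM, and thus more genes tested, 0 genes were called in set 1, in set 2, in the later cultures, among WT between title-number groups and in the difference between sets, 269 genes and 0 of the 10 between later and earlier cultures, and 139 genes in the interaction. With a filter of 10 TPM, 0 genes were called in set 2, 308 in the genotype difference of the earlier cultures, and 1 of the 10 between later and earlier cultures. A pseudocount of 0.1 or 5 also left 1 of the 10 there, and a pseudocount of 5 left 0 genes in set 2. No covariate left 0 genes in set 1, no robust step left 0 in the difference between sets, and median-of-ratios scaling left 19 in the later cultures.

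The replicate block, whose numbers showed no pairing within set 2, called 21 genes there against 1 without it, and over both sets and in set 1 it left the counts at 0 and 1 genes. None of the 10 was called in these 3 genotype comparisons with or without it, and it was run in no other comparison.

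Leaving out each culture in turn gave 0 to 8 genes in set 1, 0 to 14 in set 2, 36 to 883 genes and 0 to 3 of the 10 between later and earlier cultures, 46 to 674 genes in the interaction and 0 to 4 in the difference between sets. Within title-number groups it gave 68 to 858 genes and 1 to 3 of the 10 for genotype in the earlier cultures, 0 to 119 genes and 0 to 1 of the 10 in the later ones, 0 to 142 genes between later and earlier WT, and 1142 to 2800 genes and 2 to 6 of the 10 between later and earlier G234D cultures. Uncalled differences crossed 0 for Twist2 (−0.075 to 0.031), Tbx5 (−0.0040 to 0.18) and En1 (−0.085 to 0.0045) over both sets, and for Twist1 (−0.11 to 0.048) and Tbx5 (−0.12 to 0.12) in set 1. In set 2 they did so for Prrx1 (−0.054 to 0.032), Tbx18 (−0.022 to 0.033), Tbx3 (−0.11 to 0.31), En1 (−0.21 to 0.12) and Tcf4 (−0.034 to 0.097). Between later and earlier cultures this held for Twist2 (−0.080 to 0.067) and Tbx3 (−0.13 to 0.052), and in the interaction for Tbx18 (−0.19 to 0.042), Tbx3 (−0.11 to 0.35), Tbx5 (−0.0017 to 0.59) and En1 (−0.068 to 0.12). Twist1 and Tbx5 each gained a call between later and earlier cultures in 1 such fit. Twist2 gained a call in 1 fit each of the interaction, the genotype difference of the later cultures and the later minus earlier difference among G234D.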
